A study of Mus musculus with 4 samples.

Results

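The genes of the insulin signal that ends in glucose uptake were followed in fat of obese mice given entacapone or vehicle. They are 7 genes, chosen by name: Insr, Irs1, Irs2, Pik3r1, Akt1, Akt2 and Slc2a4. They are 7 of the 37315 Ensembl gene identifiers of both input count tables (Insr is ENSMUSG00000005534, Irs1 ENSMUSG00000055980, Irs2 ENSMUSG00000038894, Pik3r1 ENSMUSG00000041417, Akt1 ENSMUSG00000001729, Akt2 ENSMUSG00000004056 and Slc2a4 ENSMUSG00000018566). Their spans hold the midpoints of 23 of 22860 vehicle and 30 of 31856 entacapone m6A peaks. Every mouse was a male of strain C57BL/6, 23 weeks old and obese on a high-fat diet, and received vehicle or entacapone, a drug for Parkinson's disease that has also been reported to block FTO, an enzyme that removes m6A. How much entacapone was given, for how long, and whether tissue of several mice was pooled in a library is not stated in the labels used here. White adipose tissue of the inguinal depot gave 4 libraries, 1 of each kind: for each treatment an input of fragmented poly(A) RNA and an immunoprecipitate (IP) pulled down with an antibody against N6-methyladenosine (m6A), the commonest internal mark of messenger RNA. With 1 library of each kind there is no replicate and no test, and each interval below covers counting error only and compares these libraries, not the treatments.

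In a fat cell, insulin binds its receptor, a tyrosine kinase encoded by Insr, which phosphorylates the docking proteins IRS1 and IRS2. These recruit PI3-kinase through its regulatory subunit, encoded by Pik3r1, and the lipid made by the kinase brings AKT to the membrane to be activated. AKT2, the form most closely tied to glucose uptake in fat, then lets vesicles holding GLUT4, the product of Slc2a4, move to the cell surface. In messenger RNA, m6A lies mostly in long exons and around the stop codon, and it influences how long a transcript lasts and how it is translated.

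The input libraries held 24548212 gene-assigned counts for vehicle and 33164576 for entacapone, and the 7 genes took 0.118% and 0.136% of them. The entacapone peak list is 1.39 times as long as the vehicle list and reaches lower folds, down to 1.49 against 1.58. Fold is read here as the authors' enrichment of IP over input, a value that belongs to its own list. Folds of single peaks are therefore given side by side and not compared. Counts at a common fold cut are given as alternative settings only and carry the same limit. The input tables do not pair other identifiers with names, so levels of cell type markers were not analysed here. Of 8 adipocyte markers, 5 carried a vehicle peak and 6 an entacapone peak, beside 40.2% and 49% of all protein-coding genes. Adipoq and Fabp4 carried none in either list. Peak counts do not stand in for marker levels.

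Irs1 was the only one of the 7 genes whose input level differed by more than 1.5-fold, and it was higher with entacapone. Insr, Pik3r1, Akt1, Akt2 and Slc2a4 lay within 1.12-fold of equality, and Irs2 was slightly lower. Levels are CPM, counts scaled with TMM factors to a library of 1000000, and a gene was called higher or lower where its whole exact 95% interval lay beyond 1.5-fold. In bulk tissue, fewer cells of a type and less RNA per cell cannot be told apart. By this rule 4.77% of 13821 tested identifiers were called higher with entacapone and 3.23% lower, against 1 and 0 of the 7 genes. The median log2 ratio of the 7 genes was 0.09, beside -0.01 over all tested identifiers.

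Insr, which encodes the receptor, had 2128 counts in vehicle and 3261 in entacapone, or 89.5 and 95.2 CPM. The ratio of entacapone over vehicle was 1.06, with an interval of 1.01 to 1.12. The libraries thus held nearly the same share of receptor reads.

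Irs1, the receptor substrate with fewest reads of the 7 genes, had 471 counts in vehicle and 1136 in entacapone. That is 19.8 CPM (exact Poisson 95% interval 18.1 to 21.7) and 33.2 CPM (31.3 to 35.2), which do not overlap. The ratio was 1.67 and its interval, 1.502 to 1.868, began at the threshold itself. Of all tested identifiers, 6.90% had a higher log2 ratio than the 0.74 of Irs1. The call ended under 3 settings: the lower bound was 1.49 with DESeq2 size factors and 1.45 with a 99% interval, and the interval did not lie beyond 2-fold. It held with upper quartile and library total scaling, with lower bounds of 1.53 and 1.60.

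Irs2, the other receptor substrate of this set, had 1503 and 1964 counts, or 63.2 and 57.3 CPM in vehicle and entacapone. Its ratio of 0.907 (0.848 to 0.971) lay on the other side of equality from that of Irs1. Within the counts of Irs1 and Irs2 together, a share that library scaling does not touch, Irs1 took 23.9% in vehicle (exact binomial 95% interval 22.0 to 25.8) and 36.6% in entacapone (34.9 to 38.4). Part of the Irs2 span also holds the noncoding gene 9530052E02Rik. The library kit does not keep strand, so reads from the shared stretch cannot be told apart.

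Pik3r1, which encodes the regulatory subunit of PI3-kinase, had 4222 and 6220 counts, or 178 and 182 CPM. The ratio of 1.02 had an interval of 0.983 to 1.06, which includes equality; with upper quartile scaling (from 1.002) and library total scaling (from 1.05) it lay above.

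Of the AKT kinases, Akt1 had 3370 and 5039 counts, or 142 and 147 CPM, a ratio of 1.04 (0.993 to 1.08). Akt2 had the most reads of the set, 12771 and 20438 counts, or 537 and 597 CPM. Its ratio of 1.11 (1.09 to 1.14) was small and, because of its depth, narrowly bounded. Akt1 took 20.9% of the counts of this pair in vehicle (20.3 to 21.5) and 19.8% in entacapone (19.3 to 20.3), intervals that meet at their ends. Reads in part of the Akt1 span may come from the noncoding gene Gm30150 or from Mir6939, whose spans overlap it.

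Slc2a4, which encodes GLUT4, had 4583 counts in vehicle and 7112 in entacapone, or 193 and 208 CPM. The ratio was 1.08, with an interval of 1.04 to 1.12. By the interval alone, 4 of the 7 genes lay above equality (Insr, Irs1, Akt2 and Slc2a4), beside 25.9% of all tested identifiers. Below it lay 1 gene (Irs2), beside 29.8% of tested identifiers, and 2 included it (Pik3r1 and Akt1). This tally was the same with DESeq2 size factors and turned with the other scalings. With library total scaling 6 genes lay above and 0 below, beside 37.2% of tested identifiers above, and the interval of Irs2, 0.904 to 1.04, included equality. With upper quartile scaling 6 lay above and 1 below, beside 29.0% above and 26.9% below. Library total scaling raised the median log2 ratio of all tested identifiers by 0.09, and the TMM log2 ratios of Insr, Pik3r1 and Akt1 (0.09, 0.03 and 0.05) are no larger than that shift.

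**Figure D1:**
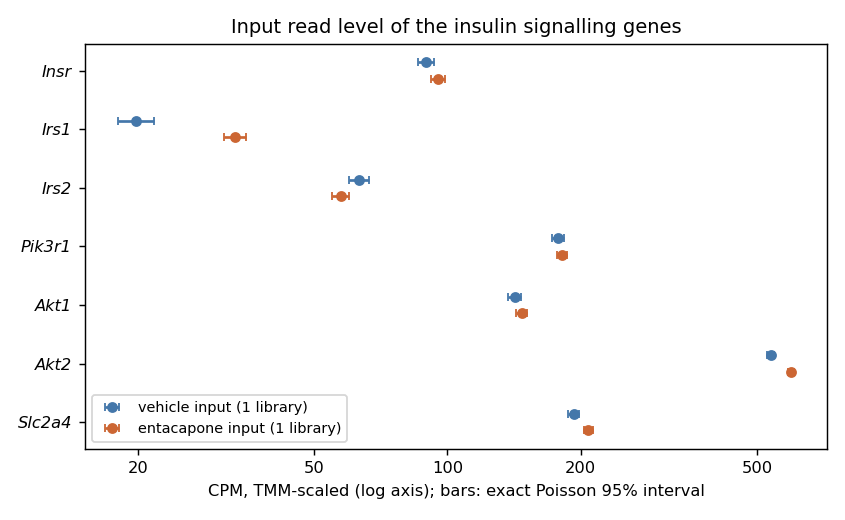
Input level of each gene in CPM on a log axis, with 1 library per treatment (blue vehicle, orange entacapone) and exact Poisson 95% intervals as bars. Irs1 stands at 19.8 and 33.2 CPM with bars apart, and Irs2 is the gene with the lower value in entacapone.

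**Figure D2:**
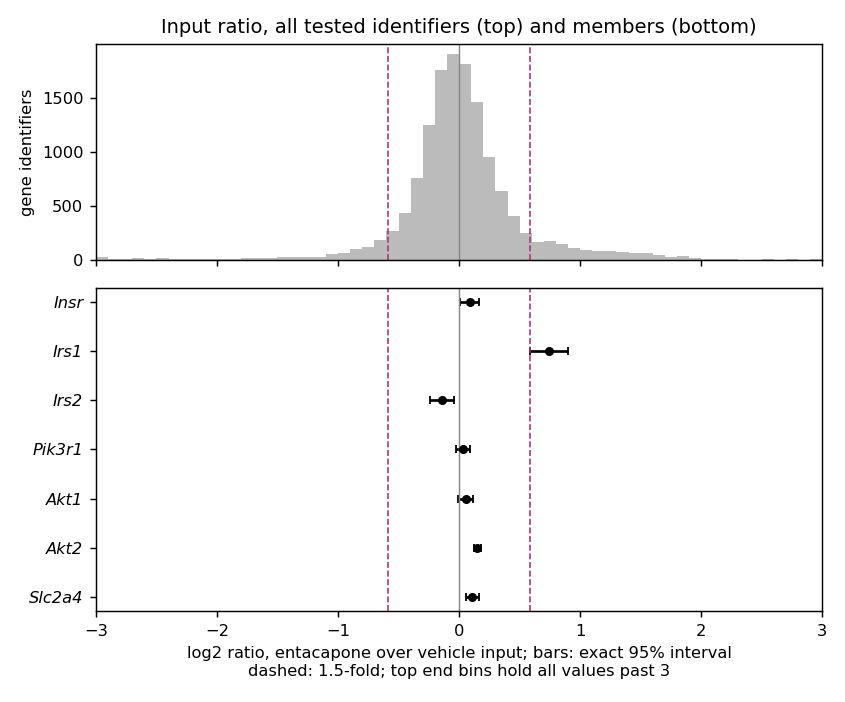
Log2 ratio of entacapone over vehicle input: a histogram of the 13821 tested identifiers above, and the 7 genes with exact 95% intervals below, with dashed lines at 1.5-fold. The interval of Irs1 begins at the upper line; the other 6 genes lie between the lines.

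The m6A peaks lay mostly in the receptor and its substrates. Irs1 carried 7 vehicle and 10 entacapone peaks, Irs2 6 and 7, Insr 4 and 5, Pik3r1 4 and 4, and Akt2 2 and 2. Slc2a4 had peaks in the entacapone list alone, 2 of low fold, and Akt1 had none in either. In all, 5 of the 7 genes carried a vehicle peak and 6 an entacapone peak, where 40.2% and 49% of 21883 protein-coding genes did. Only 1.37% of protein-coding genes carried as many vehicle peaks as Irs1, and 0.635% as many entacapone peaks. For Irs2 these shares were 2.34% and 2.55%, and for Insr 7.29% and 6.80%. Gene length and read depth were not matched in these shares.

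Peaks were shared between the libraries more often than not. In vehicle 20 of 23 peaks, and in entacapone 19 of 30, had a partner in the other list by at least 1 bp. That left 3 vehicle-only peaks (13.0%, beside 21.3% of the whole vehicle list) and 11 entacapone-only peaks (36.7%, beside 44.1% of the whole entacapone list). The order of the counts depends on how many peaks are read. At a fold of at least 2 the 7 genes had 19 vehicle and 26 entacapone peaks, but with the entacapone list limited to its 22860 highest folds the 7 genes had 23 vehicle and 17 entacapone peaks, and at a fold of at least 4 they had 5 and 3. Limiting the entacapone list drops every one of its peaks with a fold under 2.39 and no vehicle peak.

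**Figure D3:**
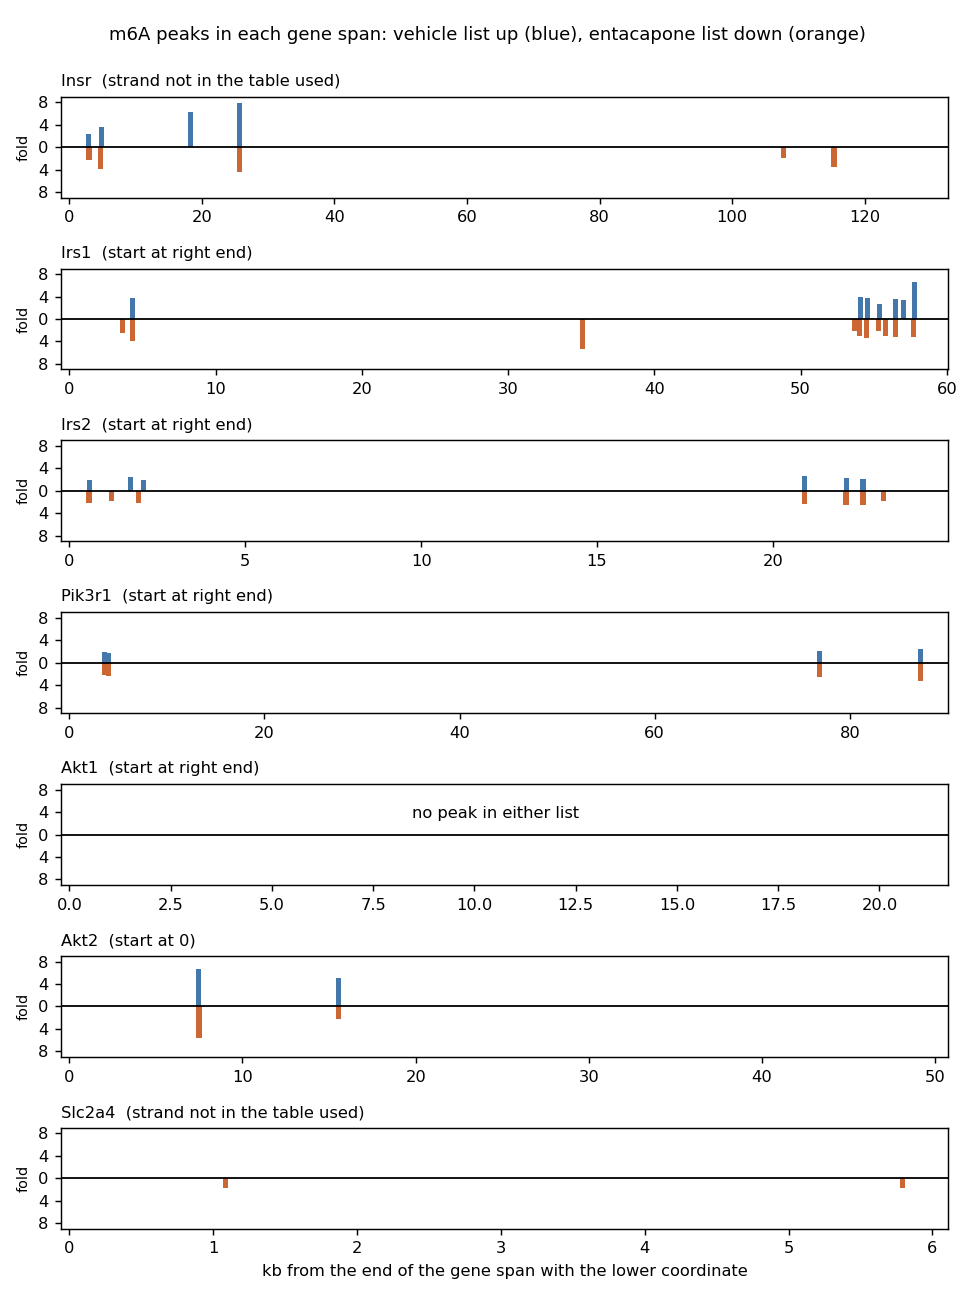
Peaks of both lists along each gene span, in kb from the end with the lower coordinate, with the authors' fold as bar height (vehicle up in blue, entacapone down in orange; bar width is fixed and not to scale). The peaks of Irs1 and Irs2 gather near both ends of the span, apart from 1 entacapone peak of Irs1, Pik3r1 and Akt2 have the same sites in both lists, Akt1 has none, and Slc2a4 has 2 in the entacapone list.

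Insr spans 128728 bp of chromosome 8 (3150922 to 3279649, assembly GRCm38.p6, called mm10). The lists shared 3 sites. The strongest lay at chr8:3176507-3176656 in the vehicle list, with a fold of 7.80 that only 3.11% of that list reached, and at chr8:3176532-3176695 in the entacapone list, with a fold of 4.38 that 23.3% of its list reached. The remaining shared sites lay within 5 kb of the lower end of the span, with folds of 2.30 and 3.51 in vehicle and 2.25 and 3.84 in entacapone. A vehicle-only peak at chr8:3169115-3169250 had a fold of 6.28, and no entacapone peak lay within 7282 bp of it. Entacapone-only peaks at chr8:3258596-3258779 (fold 2.02) and chr8:3266237-3266358 (fold 3.57) lay at the other side of the gene, over 80 kb from any vehicle peak.

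Irs1 occupies 82233105 to 82291439 of chromosome 1 and is read from the minus strand. Its coding sequence lies in the exon at the start of the gene. Of its peaks, 6 of 7 in the vehicle list and 7 of 10 in the entacapone list lay within 5 kb after the gene start. The strongest vehicle peak, chr1:82290804-82291013, began 426 bp after the start and had a fold of 6.65, which 6.82% of that list reached. The entacapone peak at that site, chr1:82290814-82290871, was 57 bp wide against 209 bp, lay wholly inside the vehicle peak and had a fold of 3.20.

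The widest marked stretch of Irs1 was a run of 805 bp at chr1:82286952-82287757. There 2 vehicle peaks (491 and 61 bp wide, folds 3.89 and 3.79) faced 2 entacapone peaks (350 and 345 bp, folds 3.05 and 3.42) with other borders. A further shared site, at chr1:82289578-82289661 in the vehicle list, had folds of 3.58 and 3.19. Near the other end of the gene, the peaks chr1:82237231-82237591 and chr1:82237259-82237599 shared 332 bp, with folds of 3.68 and 3.86.

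Irs1 had the most peaks found in 1 list alone, 2 in vehicle and 5 in entacapone. Most of them lay beside a peak of the other list. A vehicle peak at chr1:82288445-82288589 (fold 2.62) and an entacapone peak at chr1:82288379-82288441 (fold 2.08) were separated by 4 bp, and each counts as library-only. The other vehicle-only peak, chr1:82290049-82290217 (fold 3.36), lay 380 bp from an entacapone peak. The entacapone-only peaks at chr1:82286764-82286876 (fold 2.21), chr1:82288868-82288974 (fold 2.95) and chr1:82236711-82236772 (fold 2.56) lay 76, 279 and 459 bp from a vehicle peak. Only chr1:82268182-82268248, with a fold of 5.30 that 11.99% of the entacapone list reached, stood alone, 18704 bp from the nearest vehicle peak. It lies in the middle of the span, 23.2 kb after the start. The higher Irs1 read level in the entacapone input stands beside these counts; its part in the number of peaks was not tested.

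**Figure D4:**
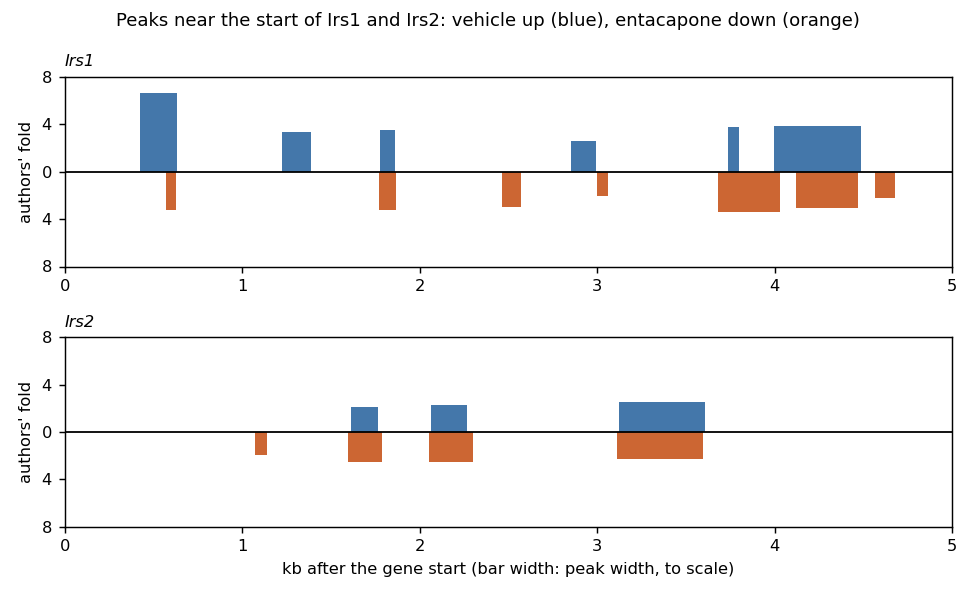
Peaks within 5 kb after the start of Irs1 and Irs2, with peak width to scale and the authors' fold as height (vehicle up in blue, entacapone down in orange). Irs1 shows peaks that overlap in part or sit side by side, such as the pair separated by 4 bp near 3 kb, and Irs2 shows 3 sites with nearly the same borders in both lists and 1 narrow entacapone-only peak.

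Irs2 covers 10984681 to 11008929 of chromosome 8, also on the minus strand, and its peaks fell at both ends of the gene in both lists. Within 5 kb after the start it had 3 vehicle and 4 entacapone peaks, and within 5 kb before the end 3 and 3. All 6 vehicle peaks overlapped an entacapone peak. The widest vehicle peak, chr8:11005322-11005809, shared 474 of its 487 bp with an entacapone peak of 483 bp, with folds of 2.57 and 2.30. Vehicle peaks at chr8:10986351-10986482 and chr8:10986626-10986953 (folds 2.40 and 1.95) were covered by 1 entacapone peak, chr8:10986346-10986969 (fold 2.08), so the lists divide that stretch differently. The entacapone-only peaks, chr8:10985797-10985952 and chr8:11007787-11007856, had folds of 1.76 and 1.89, values that 94.7% and 90.4% of the entacapone list reached. Folds of Irs2 stayed between 1.76 and 2.57 over both lists, so none of its peaks reached a fold of 4, and 2 entacapone peaks remained among the top-ranked ones.

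Pik3r1 runs from 101680761 to 101768217 of chromosome 13 on the minus strand, and RefSeq gives 2 promoters for it. Its 4 sites were the same in both lists. The site nearest the start, chr13:101767955-101768137 in vehicle and chr13:101767952-101768144 in entacapone, began 80 and 73 bp after the start of the longest transcript, with folds of 2.51 and 3.26. A site 10.5 kb after that start was 573 and 548 bp wide, the widest among the vehicle peaks of the 7 genes, with folds of 2.04 and 2.49. The others, within 5 kb of the gene end, had folds of 1.96 and 1.70 in vehicle and 2.16 and 2.41 in entacapone. Shared bases covered at least 95.6% of each vehicle peak.

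Akt1 and Akt2 encode closely related kinases and differed in their peaks. Akt1 (chromosome 12, 112653821 to 112674884) was listed with no peak, as were 48.5% of protein-coding genes. That share is not limited to genes with reads in this tissue. The Akt1 transcript was read in both inputs, with more vehicle counts than 91.0% of tested identifiers. An empty list does not show that it carries no m6A. Akt2 (chromosome 7, 27591552 to 27640826, plus strand) had 2 sites, both shared. At chr7:27598955-27599058 and chr7:27598955-27599129 the peaks began at the same base, with folds of 6.72 and 5.61 that 6.60% and 9.55% of their lists reached. The second site, chr7:27606985-27607171 in vehicle and chr7:27607001-27607156 in entacapone, had folds of 5.14 and 2.21, reached by 18.3% and 78.5% of the lists.

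This second Akt2 site runs into the promoter window of the most downstream of 4 Akt2 starts that RefSeq gives. It is the only place where a peak of the 7 genes meets one of the 10 promoter windows held for 5 of them, so its letters are shown. The stretch lies at chr7:27607086-27607335 (GRCm38.p6, plus strand) and ends at the base before that start; capitals mark the 71 bases under the peaks of both lists.
Akt2: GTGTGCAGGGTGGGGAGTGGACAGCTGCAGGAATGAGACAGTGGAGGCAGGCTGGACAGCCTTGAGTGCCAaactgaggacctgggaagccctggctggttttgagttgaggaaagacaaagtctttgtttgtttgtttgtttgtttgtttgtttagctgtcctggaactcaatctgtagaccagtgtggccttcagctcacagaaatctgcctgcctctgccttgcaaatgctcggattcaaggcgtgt
The sequence GGACA, with GGACC and GGACT, is a common form of the motif that the m6A methyltransferase prefers. The 71 bases hold it 2 times on the gene strand and 0 times on the other. The whole window of 300 bp holds it 3 times on the gene strand and 1 time on the other. In the same 71 positions of 32851 RefSeq promoter windows, 19.5% hold it at least once on the gene strand and 2.28% at least 2 times. Those positions lie before the start in each window, so they are not a background of peak sequences. A match is a description of these letters and marks no methylated base.

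Slc2a4 is the shortest of the 7 genes, 5931 bp on chromosome 11 (69942286 to 69948216). It had no vehicle peak and 2 entacapone peaks, at chr11:69943323-69943414 (fold 1.69) and chr11:69948038-69948117 (fold 1.64). Peaks with entacapone alone occurred in 11.3% of protein-coding genes, and with vehicle alone in 2.45%. Both Slc2a4 folds are among the lowest of the list, as 96.7% and 98.0% of its peaks reached them, and both peaks are gone at a fold of at least 2. A further entacapone peak, chr11:69941449-69941549 (fold 2.13), lay 737 bp outside the span and within that of the neighbouring gene Ybx2. Skeletal muscle also makes GLUT4. Of 12 muscle markers, 7 carried a vehicle and 7 an entacapone peak, beside 40.2% and 49% of all protein-coding genes. They had 17 and 25 peaks in all, and Ckm, Acta1, Mylpf and Tnnc2 carried none. Such counts do not measure how much muscle RNA a library held. The part of muscle in the Slc2a4 values was not tested.

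Other genes of the pathway were read from a list of 55 genes, by their peaks alone. Of these, 40 carried a vehicle peak and 49 an entacapone peak, or 72.7% and 89.1%, beside the 40.2% and 49% of all protein-coding genes. The shares over all protein-coding genes are not matched for gene length or read depth and include genes without reads here. They therefore cannot show that the pathway is richer in m6A. More peaks in entacapone were counted for 36 genes and fewer for 6; among all protein-coding genes with a peak, 55.3% had more and 15.4% fewer. With the entacapone list limited to its 22860 highest folds the order turned, to 40 genes in vehicle and 35 in entacapone. This limit removes entacapone peaks only, so the entacapone count could only fall or stay. No share over all protein-coding genes stands beside the limited counts. The median list gene had 1 vehicle and 2 entacapone peaks. Each set of cell type markers had more peaks in the entacapone list too. Vehicle and entacapone peaks numbered 10 and 18 for adipocytes, 17 and 25 for skeletal muscle and 3 and 20 for endothelial cells. They numbered 2 and 5 for macrophages and 7 and 16 for lymph node. Of the endothelial markers, 2 of 5 carried a vehicle peak and 5 of 5 an entacapone peak. With the lists limited, peaks numbered 10 and 13 for adipocytes, 17 and 13 for muscle and 3 and 10 for endothelial cells. For macrophages they then numbered 2 and 2, and for lymph node 7 and 12. The part of these cell types in the pathway counts was not tested.

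Next to the receptor, 8 of 9 adaptors and related receptors carried peaks in both lists, and Igf1r, the receptor for insulin-like growth factor, had the most among them, 4 and 7. Among PI3-kinase subunits, Pik3ca, a catalytic subunit, had 2 and 3 peaks and Pik3cd, another, 3 and 2. Pik3r3, a regulatory subunit like Pik3r1, was the only gene of the list with a peak in vehicle alone, 1 of fold 3.72. Of all protein-coding genes 2.45% had peaks in vehicle alone. Pik3r3 is named after its values were seen. In the AKT branch, Rictor, the defining subunit of the complex that phosphorylates AKT, had 4 and 5 peaks. All 6 genes of this branch carried an entacapone peak, beside 49% of all protein-coding genes. Of the AKT substrates and effectors, 8 of 9 had more entacapone than vehicle peaks, beside 55.3% of all protein-coding genes with a peak. Tbc1d4, the substrate that holds GLUT4 vesicles back until AKT phosphorylates it, had 3 and 5.

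GLUT4 vesicle traffic was the group whose members with a peak differed most in number, 5 of 12 in vehicle and 10 of 12 in entacapone. That is 41.7% and 83.3%, beside 40.2% and 49% of all protein-coding genes. With the entacapone list limited to its 22860 highest folds the group had 5 and 6 such genes, with 10 and 15 peaks in all. Its leading gene Rhoq, a small GTPase of insulin-stimulated transport, had 4 and 7 peaks. Of the 13 inhibitors, 10 and 12 carried a peak, led by Ptpn1, the phosphatase that acts on the receptor, with 3 and 4. Slc2a1, which encodes the transporter GLUT1, had 3 and 3. Beside 11.3% of all protein-coding genes, 10 of the 55 list genes had a peak in entacapone alone. Those with most were Mapkap1, a partner of Rictor, Gsk3a, an AKT substrate, and Snap23, a vesicle fusion protein, each with 0 vehicle and 2 entacapone peaks. Their folds were 2.68 and 2.04 for Mapkap1, 1.79 and 1.72 for Gsk3a, and 5.75 and 1.86 for Snap23. Both Gsk3a peaks are thus gone at a fold of at least 2. With the lists limited as above, genes with a peak numbered 8 in vehicle and 6 in entacapone among receptors and adaptors. They numbered 4 and 2 among PI3-kinase subunits, 5 and 4 in the AKT branch, 7 and 7 among AKT substrates, and 10 and 9 among inhibitors. Peaks in these groups then numbered 17 and 15, 7 and 4, 14 and 9, 11 and 20, and 20 and 17, in the same order. No share over all protein-coding genes stands beside these limited counts. No peak was listed in either library for 5 genes, Irs4, Tsc2, Sort1, Aspscr1 and Ppp2ca, also named after their values were seen. Of all protein-coding genes, 48.5% had no peak in either list.

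**Figure D5:**
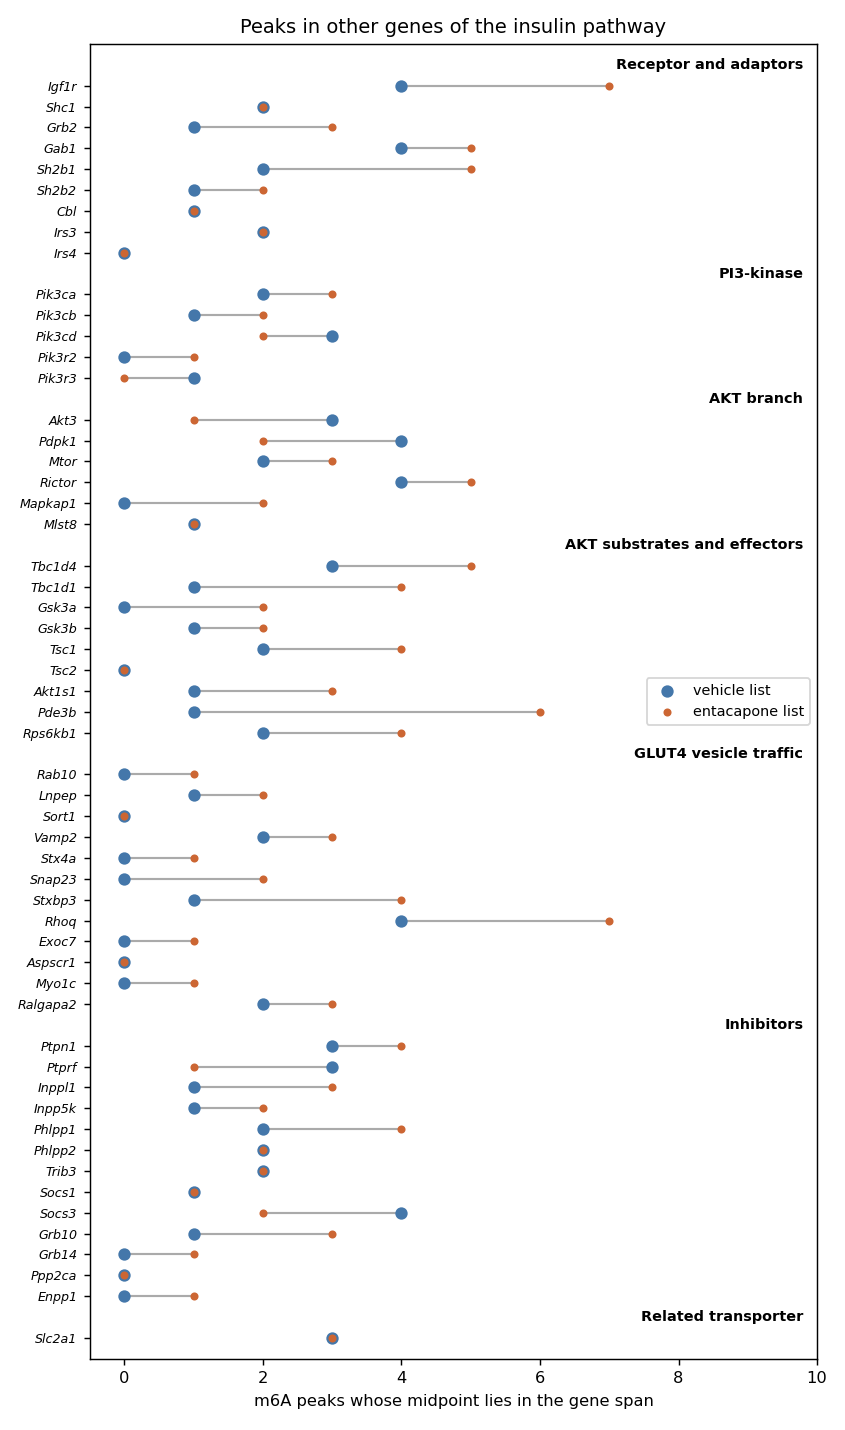
Number of m6A peaks whose midpoint lies in the span of each of the 55 other pathway genes, by role, in the vehicle list (large blue points) and the entacapone list (small orange points), joined by a line. Orange lies to the right for 36 genes and to the left for 6; Igf1r and Rhoq reach furthest right, at 4 and 7 peaks.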

How the data were processed

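TopHat2 2.1.1, MACS2 and assembly mm10 are named in the submitters' processing notes; what counted the reads, the annotation release, the MACS2 version and the threshold for peaks are not. The authors deposited raw read counts per Ensembl identifier for each input. For each IP they deposited a peak list with an unlabelled number, read here as a linear fold enrichment (ratio). Its lowest values, 1.58 in vehicle and 1.49 in entacapone, do not settle that reading against another scale. Whether starts count from 0 or 1 is not stated; coordinates are as deposited.

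Counts were scaled with TMM (edgeR 4.0.16, R 4.3.3; DESeq2 1.42.0 size factors as an alternative), and identifiers with a mean of at least 1 CPM were tested with a prior of 0.5 counts and exact conditional (Clopper-Pearson) intervals. The check on simulated Poisson counts, the error these intervals assume, covers the calculation and not variation between mice or libraries. A peak belonged to a gene whose GRCm38.p6 span in RefSeq's table holds its midpoint; 1 bp of overlap made peaks shared. All 55 pathway and 36 marker genes were matched by symbol; other genes of the planned pathway list are not reported here. All 7 genes are named; of the pathway list, the gene with most peaks in each role, and those with most peaks in 1 list alone. Macrophage markers carried vehicle and entacapone peaks in 2 and 2 of 5 genes (2 and 5 peaks), and lymph node markers in 4 and 5 of 6 (7 and 16 peaks). The members and lists were chosen with earlier results of these data known. Pathway counts in the input were not run, as the identifiers are not paired with names.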

Additional observations from a re-analysis of the deposited data

How the results depend on the processing

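No paired analysis was possible because each treatment has 1 library of each kind. Of the alternative values of the principal results, 65 stayed within the margins and 31 moved. With library total scaling the log2 ratios were 0.18 for Insr, 0.12 for Pik3r1, 0.15 for Akt1, 0.24 for Akt2 and 0.20 for Slc2a4. Members called higher numbered 0 with DESeq2 size factors, beside 646 of 13821 tested identifiers. They numbered 0 with a 99% interval and 0 beyond 2-fold, settings under which all tested identifiers were not counted. When an interval only had to leave out equality, 4 were higher and 1 lower, beside 25.9% and 29.8% of tested identifiers. Under that rule, in a pairing of settings chosen after seeing the data, 4 were higher and 1 lower with DESeq2 size factors, 6 and 1 with upper quartile, and 6 and 0 with library total scaling. At a fold of at least 4 the members had 5 vehicle and 3 entacapone peaks in 3 and 3 genes, 2 shared in each list, and 1 entacapone-only peak, and 17 and 18 pathway genes carried a peak. With the entacapone list limited to its 22860 highest folds there were 17 entacapone peaks, 13 shared vehicle peaks, 10 vehicle-only and 4 entacapone-only peaks. This limit removes entacapone peaks and no vehicle peak, so by construction it can only add vehicle-only peaks and take away entacapone-only ones. Vehicle-only peaks numbered 6 when 50% of both peaks had to overlap. When peaks less than 500 bp apart counted as shared, an alternative chosen after seeing the data, 1 vehicle-only and 5 entacapone-only peaks were left. Shares of library-only peaks over the whole lists were not counted under these fold, list and overlap settings. The member counts under them therefore cannot show whether the members differ from the lists as a whole. The settings change scaling, threshold or overlap by construction; beyond that the cause was not tested. Counting depth limits Irs1 most, and the depth of the IP libraries is unknown.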
